A study of Homo sapiens with 16 samples.

Results

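HLA-B, HLA-C, HLA-E, HLA-F, B2M, TAP1, TAP2, TAPBP and NLRC5 encode chains of MHC class I molecules, the transporter and the chaperone that load those chains with peptide, and a regulator of their transcription. The members were chosen by name: a probe belonged to a member when the gene name in the array's own annotation equalled 1 of these symbols, which gave 9 genes of the 20446 gene symbols on the array and 18 of its 50599 probes. The cells were RPMI-8226 and MM.1S, both established human multiple myeloma lines, and both were treated for 6 days. The 4 treatments of each line were DMSO, GSK126 at 1 µM, UNC0638 at 1 µM, and GSK126 with UNC0638 (both at 1 µM), each with 2 biological replicates, so that 16 arrays fell into 8 groups. GSK126 inhibits EZH2, the methyltransferase of histone H3 lysine 27, and UNC0638 inhibits G9a (EHMT2) and its partner GLP, methyltransferases of histone H3 lysine 9. Each RNA sample was labelled and hybridised alone to a one-colour Agilent array.

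Every nucleated cell displays peptides from its own proteins on MHC class I molecules, which are a heavy chain, classical or nonclassical, bound to the light chain beta-2-microglobulin. Proteasomes cut proteins into peptides, the TAP transporter carries the peptides into the endoplasmic reticulum, and tapasin holds empty class I molecules at TAP until a peptide fits. Cytotoxic T cells and natural killer cells read the result at the cell surface, which is why the pathway is studied in myeloma, and interferon raises transcription of most of its genes, in part through the coactivator NLRC5.

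A level below is the log2 intensity of a probe minus the log2 of the 75th percentile of its array, so that 0 is the 75th percentile; a level can be compared between arrays for 1 probe but not between probes. The 75th percentile lay between 256 and 349 intensity units on the 8 RPMI-8226 arrays and between 431 and 477 on the 8 MM.1S arrays. Between 46.5 and 49.7% of the spots on an RPMI-8226 array were well above the local background, against 49.9 to 52.8% on an MM.1S array, and no spot was saturated. The number of arrays, 2 in each group, limits the precision of every value. All arrays of 1 line shared a slide, and the effects of slide and of cell line cannot be told apart. A change common to most probes is lost when arrays are scaled to a percentile.

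The arrays bore out the labelled cell type in part. Of 10 plasma cell markers, 9 (SDC1, CD38, TNFRSF17, XBP1, IRF4, PRDM1, SLAMF7, MZB1 and IGJ) were well above background on all 16 arrays, the probe of XBP1 reading highest over the 16 arrays (mean 6.68; probes differ in signal, so this ranks readings and not transcripts); the other, CD27, was not. The B cell markers PAX5 and CD22 were well above background on no array, as were CD1C among myeloid and dendritic markers and CDH1 among epithelial markers. Other markers of cells outside the plasma cell lineage were detected, however. The T cell markers CD3D, CD2 and CD8A (3 of 5) and the myeloid marker CD14 were well above background on all 16 arrays. RPMI-8226 carried the epithelial marker EPCAM at levels of 5.26 and 4.80 given DMSO, while MM.1S read -2.97 and -2.49.

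Several of these marker lists moved with treatment. The summed level of the 10 plasma cell markers was 8.20 and 8.41 in RPMI-8226 given DMSO and 7.62 and 7.93 given both inhibitors, and in MM.1S it was 9.15 and 9.18 against 8.61 and 8.65. In MM.1S 8 of 9 plasma cell markers tested were called lower given both inhibitors and 0 higher, against 34.6% and 23.6% of all symbols. Quantile normalization, however, gave 4 lower and 1 higher. In RPMI-8226 3 of 9 were called lower and 1 higher, against 4.66% and 8.32% of all symbols. With the replicate block 5 were lower and 1 higher, against 8.90% and 12.0%. The sums below follow mostly the probes that read highest. The summed level of 4 B cell markers, where the probe of BCL6 read highest over the 16 arrays, went from -2.42 and -2.17 to 0.89 and 0.35 in RPMI-8226 and from -4.31 and -3.87 to 0.25 and 0.59 in MM.1S. BCL6 and MS4A1 carried that rise, since PAX5 and CD22 stayed at background. Given DMSO, MS4A1 was at background in both lines and BCL6 in MM.1S. The MM.1S sums given DMSO are thus background alone, and the size of that rise is not exact. For 5 T cell markers, where that of CD3D read highest, it went from -0.38 and -0.35 to 3.83 and 3.64 in RPMI-8226 and from -1.01 and -1.07 to -0.12 and 0.02 in MM.1S. In MM.1S CD3D itself went only from a mean of -3.62 to -3.48, while CD2 went from -3.10 to -1.11 and CD3E from -4.85, at background, to -2.47. CD8A fell in both lines, from -1.59 to -2.33 in RPMI-8226 and from -2.06 to -2.41 in MM.1S. Of the T cell markers tested, 4 of 5 were called higher and 1 lower in RPMI-8226 and 2 of 4 higher and 1 lower in MM.1S. CD3E was at background given DMSO in both lines. It entered the fits only through the arrays with UNC0638, alone or combined, where it was high, so a call of CD3E is no test. The call lower ended in both lines after normexp correction and in MM.1S on the scaling by detected probes. For the 4 myeloid and dendritic markers found, where CD14 read highest, it went from -0.83 and -0.08 to 2.16 and 2.38 in RPMI-8226 and from -2.33 and -2.34 to -0.60 and -0.31 in MM.1S, with CD1C at background throughout. The MM.1S shift was that of ITGAM (mean -4.37 to -0.79), since CD14 stayed at -2.94 and -2.97 and CSF1R at background. The sum of the 5 epithelial or fibroblast markers, where EPCAM read highest, was 5.28 and 4.84 against 3.68 and 4.08 in RPMI-8226 and -2.63 and -2.23 against -3.45 and -3.29 in MM.1S. In RPMI-8226 that fall was of EPCAM alone: COL1A2 went from a mean of -6.37, at background, to -2.72 and DCN from -0.82 to 0.11, and of 3 tested 1 was called higher and 1 lower (median 0.93). In MM.1S, of 2 tested, 1 was called higher and 1 lower (median -0.44). EPCAM fell there from a mean of -2.73 to -6.13, at background, and DCN rose from -7.06, at background, to -4.54. That median lies between opposite changes whose sizes are not exact. COL1A2 in RPMI-8226 and DCN in MM.1S were at background given DMSO, as was EPCAM in MM.1S given both, so calls of these carry no test. The part of these shifts in the results for the members was not tested. Each sample was a culture of 1 established line, so these sums are levels of RNA in that culture and do not count cells of other types. Bulk RNA does not show whether all cells of a culture shared a shift.

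HLA-B and HLA-C, classical heavy chains, present peptides to CD8 T cells, and HLA-C is also read by receptors of natural killer cells. HLA-B was measured by 3 probes and HLA-C by 2. In the array's annotation (GRCh37, minus strand) the HLA-B probes A_33_P3379947 and A_33_P3424800 lie at chr6:31321653-31321712 and chr6:31321663-31321722. The HLA-C probe with the higher mean, A_33_P3424803, is placed at chr6:31321644-31321703, over the same stretch of HLA-B, while the other HLA-C probe, A_33_P3330109, is placed at chr6:31236617-31236676. A_33_P3424800 and A_33_P3424803 share 41 bases, and 41 of the 41 are identical. A_33_P3379947 shares 50 bases with A_33_P3424800 and 51 with A_33_P3424803, and differs from each by T27G, counting positions from 1 at the 5′ end of A_33_P3379947. The 25 bases of the 3 probes at chr6:31321674-31321698 are shown because HLA-B and HLA-C are read there through almost the same sequence, with the differing base in capitals.
HLA-B A_33_P3379947: caattcctggaaTttgagagagcaa
HLA-B A_33_P3424800: caattcctggaaGttgagagagcaa
HLA-C A_33_P3424803: caattcctggaaGttgagagagcaa
The third HLA-B probe, A_33_P3399208, has no position in the annotation and gave values unlike those of the other two. The annotation assigns it to transcript ENST00000466304, and the other two to NM_005514. Its 60 bases are printed so that its target can be looked up.
HLA-B A_33_P3399208: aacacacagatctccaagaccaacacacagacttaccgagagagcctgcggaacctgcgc

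Each gene below is represented in counts by the probe whose mean over the 16 arrays was highest. A member was called when limma's moderated test gave a Benjamini-Hochberg adjusted p under 0.05 over all probes kept in that fit. All 9 members passed the filter on dim probes in both lines. The comparisons within a line share their DMSO arrays, so they are not independent of one another.

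In RPMI-8226, limma called 0 of 9 members in any of the 7 comparisons among treatments. Given GSK126, 0 members were higher and 0 lower, against 0.756% and 0.0371% of all 13487 symbols tested, and 1 member had an unadjusted p under 0.05. Given UNC0638, 0 members were higher and 0 lower, against 0.630% and 0.0593%, with 0 members at an unadjusted p under 0.05. At shares this small a list of 9 genes would mostly hold no call, so neither count is a result about the members. Given both inhibitors, 0 members were higher and 0 lower, against 8.32% and 4.66% of all symbols, and 3 members (HLA-F, B2M and TAP1) had an unadjusted p under 0.05. The other counts of 0 stood against 2.57% for both inhibitors versus GSK126 (1 member at an unadjusted p under 0.05), 3.78% for both versus UNC0638 (3 members), 1.73% for UNC0638 versus GSK126 (2 members) and 0.193% for the departure of the combination from the sum of the single treatments (1 member). With the replicate number as a block in the limma fit, 0 members were called given GSK126 (2.54% of all symbols higher and 0.193% lower), 0 given UNC0638 (1.46% and 0.526%), and 1 higher, TAP1, given both (12.0% and 8.90%).

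In MM.1S the counts were larger for all symbols in each comparison but the departure from additivity. Given GSK126, 1 member was called higher and 0 lower, against 6.44% and 2.39% of all 14013 symbols tested; 3 members had an unadjusted p under 0.05. A count of 1 in 9 is near that background. Given UNC0638, 4 members were called higher and 0 lower, against 13.8% and 17.9% of all symbols, and 6 had an unadjusted p under 0.05. Given both inhibitors, 5 members were called higher and 1 lower, against 23.6% and 34.6% of all symbols. The share of members called higher was thus above the share of all symbols in both of these comparisons, while the share called lower was below it. For UNC0638 that rests on single arrays: the count fell to 0 without the second DMSO array or either UNC0638 array, and lay between 0 and 5 over the 8 left out; for both inhibitors 4 to 6 members were called. Both inhibitors versus GSK126 called 5 members higher and 0 lower, against 41.1% of all symbols called, 25.1% lower and the rest higher, a count that fell to between 0 and 4 with an array left out. Both versus UNC0638 called 1 higher and 0 lower against 7.26% and 8.56%, UNC0638 versus GSK126 called 1 higher and 0 lower against 6.11% and 7.26%, and the departure from additivity called 0 against 0% (1 member at an unadjusted p under 0.05). The first of these had 2 members at an unadjusted p under 0.05, as had the second.

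Between the lines given DMSO, 4 members were called, 1 higher and 3 lower in RPMI-8226, against 61.9% of all 14857 symbols tested. The test of the difference between the lines' responses called 0 of 9 members for GSK126 (1.02% of all symbols; 0 members at an unadjusted p under 0.05), 0 for UNC0638 (3.40%; 4 members) and 0 for both inhibitors (15.7%; 1 member). On the main scaling, then, no member called in MM.1S and not in RPMI-8226 passed the test of a difference between the lines. Under other settings the same test did call members: quantile normalization 3 for UNC0638 and 3 for both, and normexp correction 3 and 1. The share of all symbols called under those settings is not given here, so these counts are not a result about the members.

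**Figure D1:**
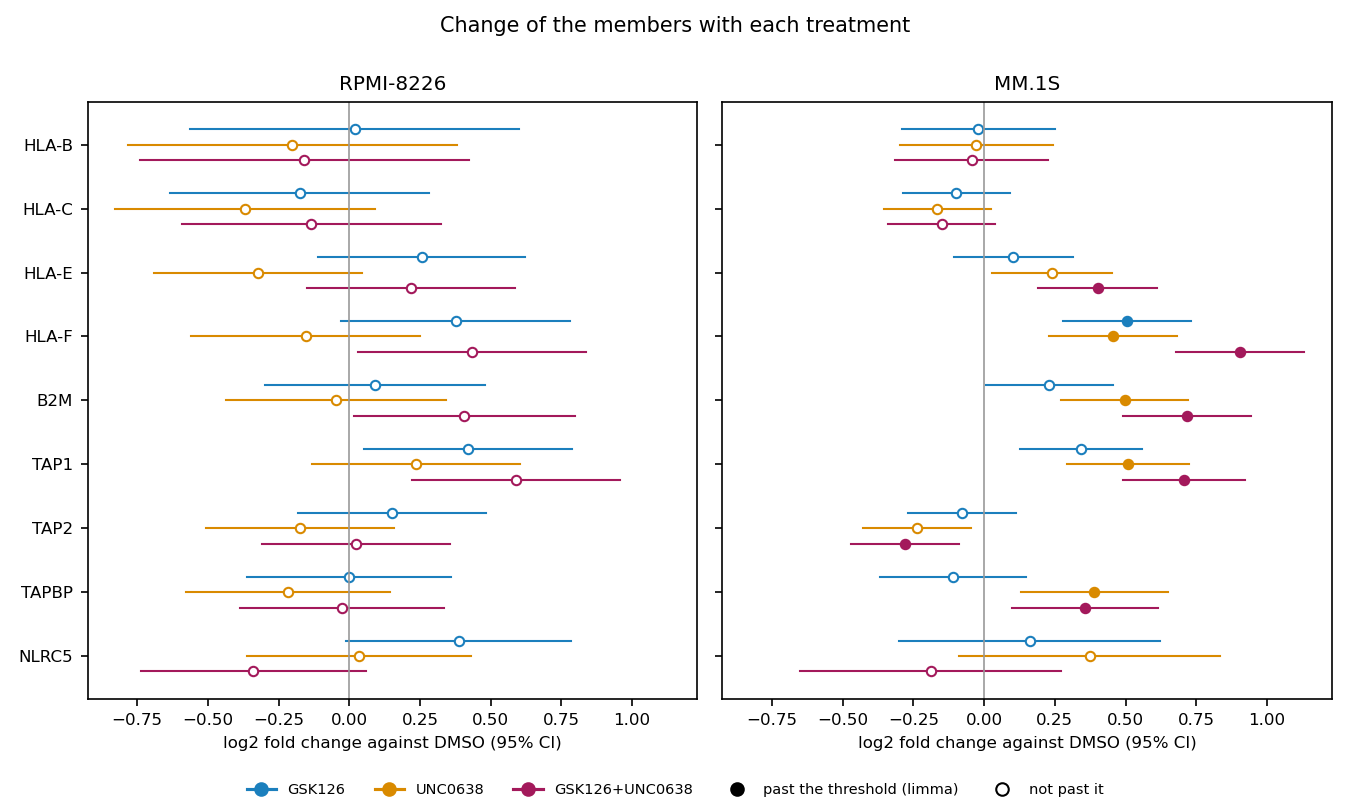
Log2 fold change against DMSO (horizontal axis) of the 9 members given GSK126, UNC0638 or both, in RPMI-8226 and MM.1S, with points for the limma estimates from 2 arrays a group, bars for 95% confidence intervals and filled points for adjusted p under 0.05. Filled points appear in MM.1S alone, at most for both inhibitors, where HLA-F stands highest at 0.91 and TAP2 lowest at -0.28 (TAP2 loses its call under quantile normalization, at -0.11, and on the scaling by detected probes, at -0.07).

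The plot of changes against DMSO sets the 9 members side by side, with wider intervals in RPMI-8226 than in MM.1S except for NLRC5. The median log2 change of the 9 members given both inhibitors was 0.36 in MM.1S, beside -0.13 over all symbols, and 0.02 in RPMI-8226, beside -0.10. For UNC0638 it was 0.37 in MM.1S beside -0.07, and -0.17 in RPMI-8226 beside -0.01. For GSK126 it was 0.10 in MM.1S and 0.15 in RPMI-8226, beside -0.04 in each line. Scaling each array instead by the 75th percentile of the 18475 probes detected on all 16 arrays moved the median of all symbols by 0.14 for both inhibitors in RPMI-8226, by 0.11 for UNC0638 in MM.1S and by 0.21 for both in MM.1S. The members' median for both inhibitors in MM.1S was 0.57 on that scaling, 0.35 after normexp background correction and 0.89 after quantile normalization, so it stayed above that of all symbols while its size depended on the scaling. In RPMI-8226 the members' median for both inhibitors lay between 0.02 and 0.16 over the 4 scalings.

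The chosen HLA-B probe, A_33_P3424800, read 5.21 and 5.59 in RPMI-8226 given DMSO, 5.29 and 5.55 given GSK126, 5.13 and 5.26 given UNC0638, and 4.94 and 5.54 given both. In MM.1S it read 5.46 and 5.47, then 5.37 and 5.52, 5.44 and 5.44, and 5.29 and 5.55 in the same order. The groups overlapped in both lines apart from UNC0638 in MM.1S, whose arrays lay just below DMSO, and no treatment was called. Given both inhibitors the log2 change was -0.04 in MM.1S (SE 0.111, adjusted p 0.759), but its sign turned to 0.45 after quantile normalization (adjusted p 0.0193) and to 0.17 on the scaling by detected probes (adjusted p 0.23), so no direction can be given. The change was -0.16 in RPMI-8226 (adjusted p 0.69). A_33_P3379947 likewise had no call against DMSO in either line, with 0.13 given both in MM.1S (adjusted p 0.61; 0.65 and 0.0346 after quantile normalization), although it was lower in RPMI-8226 than in MM.1S given DMSO by -0.91 (adjusted p 0.00359).

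The HLA-B probe without a position behaved otherwise. A_33_P3399208 read 1.96 and 2.0 in MM.1S given DMSO, 2.79 and 3.19 given GSK126, 2.81 and 2.92 given UNC0638, and 3.64 and 3.66 given both. Each treated group lay above DMSO and the combination above each single inhibitor, with no overlap between them. The log2 change was 1.01 for GSK126 (SE 0.139, adjusted p 0.0162), 0.89 for UNC0638 (adjusted p 0.00799) and 1.67 for both (adjusted p 0.000414). The combination exceeded GSK126 by 0.66 (adjusted p 0.0143) and UNC0638 by 0.78 (adjusted p 0.026). Leaving out either DMSO array ended the call for GSK126, and over the 8 arrays left out in turn its adjusted p ran from 0.03 to 0.0758.

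In RPMI-8226 the same probe read 3.10 and 3.65 given DMSO, 4.06 and 4.10 given GSK126, 3.17 and 3.40 given UNC0638, and 4.25 and 4.38 given both. UNC0638 fell inside the DMSO values, and GSK126 and the combination above them. The change was 0.94 for both (SE 0.21, adjusted p 0.0361), 0.70 for GSK126 (adjusted p 0.298) and -0.09 for UNC0638 (adjusted p 0.945). Of the 8 arrays left out in turn, only leaving out the second DMSO array kept the call for both, and the adjusted p ran from 0.0246 to 0.131. The response to UNC0638 differed between the lines by -0.98 (adjusted p 0.0761, or 0.0339 with the replicate block) and that to both by -0.73 (adjusted p 0.0945, or 0.0411 with the block). Results for HLA-B thus depended on which probe was read, and which transcripts A_33_P3399208 detects was not tested.

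The chosen HLA-C probe, A_33_P3424803, read 6.03 and 6.39 in RPMI-8226 given DMSO, 5.90 and 6.17 given GSK126, 5.77 and 5.92 given UNC0638, and 5.95 and 6.21 given both. In MM.1S it read 6.34 and 6.34, 6.26 and 6.22, 6.22 and 6.12, and 6.16 and 6.22. Every treated MM.1S array lay below the DMSO arrays, by little, and no comparison was called. Given both inhibitors in MM.1S the change was -0.15 (SE 0.0776, adjusted p 0.151), but it was 0.36 after quantile normalization (adjusted p 0.0171) and 0.06 on the scaling by detected probes, so the direction is not settled. The HLA-C probe at its own locus, A_33_P3330109, gave -0.17 in the same comparison (adjusted p 0.319; 0.35 and 0.0726 after quantile normalization, and 0.05 on the scaling by detected probes). Neither HLA-C probe was called in RPMI-8226, where both inhibitors gave -0.13 and 0.03.

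HLA-E (A_32_P460973, chr6:30460729-30460788, plus strand) presents leader peptides of other class I chains to the NKG2 receptors of natural killer cells. It read 5.62 and 5.63 in MM.1S given DMSO, 5.65 and 5.81 given GSK126, 5.85 and 5.88 given UNC0638, and 5.99 and 6.07 given both. All treated arrays lay above the DMSO pair, with the combination at the top. Given both inhibitors it rose by 0.40 (SE 0.0867, adjusted p 0.00981), a call kept without any 1 of the 8 arrays and under each of 9 other settings, with log2 changes from 0.35 to 0.94. The changes of 0.10 for GSK126 (adjusted p 0.482) and 0.24 for UNC0638 (adjusted p 0.0836) were not called, although that for UNC0638 was called after quantile normalization at 0.56, after normexp correction at 0.26 and on the scaling by detected probes at 0.35. In RPMI-8226 HLA-E read 4.93 and 5.02, 5.22 and 5.25, 4.58 and 4.73, and 5.05 and 5.34 in the same order of treatments. UNC0638 arrays lay below DMSO there and the others above it, without a call: the changes were 0.26, -0.32 and 0.22 (adjusted p 0.616, 0.6 and 0.371). Given DMSO, HLA-E was lower in RPMI-8226 than in MM.1S by -0.65 (adjusted p 0.00079).

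HLA-F is a nonclassical heavy chain, found largely inside the cell and bound by receptors of natural killer cells. Its brighter probe, A_33_P3379939 (chr6:29693280-29693338, plus strand), read 6.06 and 6.07 in MM.1S given DMSO, 6.47 and 6.67 given GSK126, 6.48 and 6.56 given UNC0638, and 6.97 and 6.97 given both. The 4 arrays of the single inhibitors lay between DMSO and the combination, and none reached either. HLA-F rose by 0.50 with GSK126 (SE 0.0926, adjusted p 0.0332), by 0.46 with UNC0638 (adjusted p 0.0166) and by 0.91 with both (adjusted p 0.00071). The combination exceeded GSK126 by 0.40 (adjusted p 0.0194) and UNC0638 by 0.45 (adjusted p 0.0347). HLA-F was the only member whose combination was called above UNC0638 alone and the only 1 called with GSK126 in MM.1S, by the probe with the highest mean; by other probes HLA-B joined it in both. Leaving out any 1 of the 8 arrays ended the call for GSK126 (adjusted p 0.0587 to 0.127), and leaving out either DMSO or either UNC0638 array ended that for UNC0638 (0.0197 to 0.0844 over the 8). The call for both inhibitors was kept without any 1 array and under each of 9 other settings, with log2 changes from 0.90 to 1.40.

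In RPMI-8226 the same probe read 5.80 and 6.11 given DMSO, 6.35 and 6.31 given GSK126, 5.65 and 5.95 given UNC0638, and 6.39 and 6.39 given both. GSK126 and the combination lay above DMSO and UNC0638 overlapped it. The change given both was 0.43 (SE 0.169, adjusted p 0.138), with a 95% interval from 0.03 to 0.84. Over 9 other settings it ran from 0.42 to 1.11 and was called in 2 (adjusted p 0.0199 to 0.324). The difference from the response in MM.1S was -0.47 (adjusted p 0.13). The second HLA-F probe, A_33_P3379967 (chr6:29692114-29692173, plus strand), read -3.68 and -2.96 in RPMI-8226 given DMSO, -2.35 and -2.56 given GSK126, -3.18 and -3.27 given UNC0638, and -1.83 and -1.24 given both. Its combination arrays were the highest of the line, and the rise of 1.78 was called (SE 0.290, adjusted p 0.0134), as was that over UNC0638 alone, 1.69 (adjusted p 0.0325). The call against DMSO ended without the second combination array, and its adjusted p ran from 0.0171 to 0.0552 over the arrays left out.

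That dimmer HLA-F probe read -0.03 and -0.04 in MM.1S given DMSO, 0.53 and 0.81 given GSK126, 0.82 and 0.87 given UNC0638, and 1.63 and 1.61 given both. The treated groups again lay above DMSO without overlap and the combination was highest, but UNC0638 lay above GSK126, while on the brighter probe the 2 overlapped. The rise was 0.71 with GSK126 (adjusted p 0.0204), 0.88 with UNC0638 (adjusted p 0.0042) and 1.65 with both (SE 0.106, adjusted p 0.000223). The call for GSK126 ended without either DMSO array or the second GSK126 array (adjusted p 0.0429 to 0.0936 over the 8 left out), with no filter on dim probes, and in the fit over all 16 arrays (0.164). Between the lines given DMSO it was lower in RPMI-8226 by -3.28 (adjusted p 8.38e-07), while the brighter probe differed by -0.11 without a call, so the pair of HLA-F probes gave unlike pictures of the lines' baseline.

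B2M encodes beta-2-microglobulin, the light chain of every class I molecule. Its probe (A_23_P37441, chr15:45007773-45007832, plus strand) is printed 10 times on each array and the mean was used. In MM.1S it read 7.19 and 7.01 given DMSO, 7.30 and 7.36 given GSK126, 7.58 and 7.61 given UNC0638, and 7.77 and 7.86 given both. The groups stood in that order with no overlap. B2M rose by 0.50 with UNC0638 (SE 0.0923, adjusted p 0.0128) and by 0.72 with both (adjusted p 0.00146), while 0.23 with GSK126 was not called (adjusted p 0.173). The combination exceeded GSK126 by 0.49 (adjusted p 0.0102). The call for UNC0638 ended without the second DMSO array or either UNC0638 array (adjusted p 0.0211 to 0.0656 over the 8 left out), and that for both was kept throughout, with log2 changes from 0.71 to 1.12 over 9 other settings.

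In RPMI-8226 B2M read 7.02 and 7.34 given DMSO, 7.19 and 7.35 given GSK126, 7.06 and 7.21 given UNC0638, and 7.60 and 7.57 given both. Both combination arrays cleared the DMSO values, while each single inhibitor overlapped them. The change of 0.41 was not called (SE 0.163, unadjusted p 0.0429, adjusted p 0.147), and the single inhibitors gave 0.09 and -0.05. Over 9 other settings the change given both ran from 0.37 to 0.64 and was called in 1 (adjusted p 0.0441 to 0.347). The response to UNC0638 differed from that in MM.1S by -0.54 without a call (adjusted p 0.145).

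**Figure D2:**
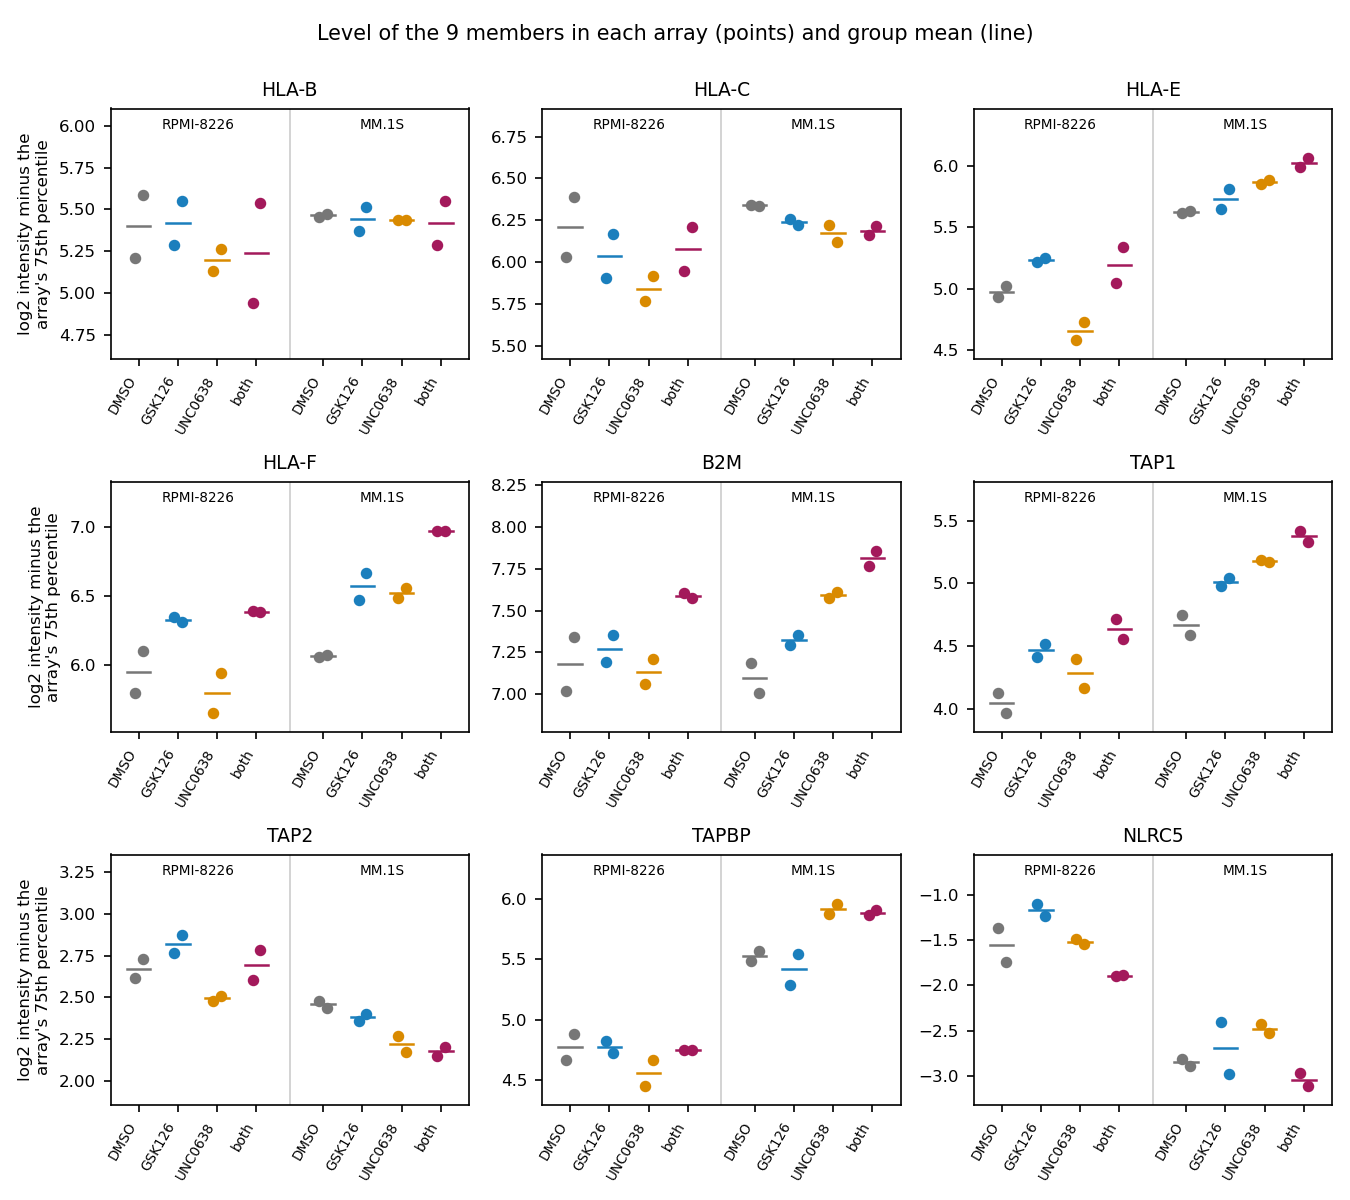
Level of each of the 9 members (vertical axis, log2 intensity relative to the array's 75th percentile) on every array, by cell line and treatment, with a point for each array and a line for the mean of 2. In MM.1S the combination arrays of HLA-F (6.97 and 6.97) and B2M (7.77 and 7.86) stand above every other array of the line, and those of TAP2 (2.15 and 2.20) stand below the DMSO arrays (2.48 and 2.44), a direction called in 4 of 9 other settings.

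In the plot of levels by array, the MM.1S panels of HLA-E, HLA-F, B2M and TAP1 climb from DMSO to the combination, while those of HLA-B and HLA-C are flat to within the small shifts given above. TAP1 and TAP2 are the subunits of the peptide transporter. TAP1 (A_23_P59005, chr6:32813210-32813269, minus strand) read 4.75 and 4.59 in MM.1S given DMSO, 4.98 and 5.04 given GSK126, 5.19 and 5.17 given UNC0638, and 5.42 and 5.33 given both. These groups did not overlap either and followed the order seen for B2M. TAP1 rose by 0.51 with UNC0638 (SE 0.0881, adjusted p 0.0104) and by 0.71 with both (adjusted p 0.0013), and the combination exceeded GSK126 by 0.36 (adjusted p 0.0224). The change of 0.34 with GSK126 missed the threshold (adjusted p 0.0711) but was called after quantile normalization at 0.50 (adjusted p 0.0347), after normexp correction at 0.35 (0.0402) and on the scaling by detected probes at 0.42 (0.042). The call for UNC0638 ended without the second DMSO array or either UNC0638 array (adjusted p 0.0179 to 0.0535 over the 8 left out). For both inhibitors it was kept throughout, with log2 changes from 0.70 to 1.19 over 9 other settings.

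TAP1 in RPMI-8226 read 4.13 and 3.97 given DMSO, 4.42 and 4.52 given GSK126, 4.40 and 4.17 given UNC0638, and 4.72 and 4.56 given both. All 6 treated arrays lay above both DMSO arrays. The change given both was 0.59 (SE 0.154, adjusted p 0.0545), just outside the threshold, and it passed with the replicate block (adjusted p 0.035), after quantile normalization at 0.78 (0.0275), after normexp correction at 0.64 (0.0169) and on the scaling by detected probes at 0.73 (0.0336). The lines' responses to both inhibitors differed by -0.12 (adjusted p 0.687). Given DMSO it was lower in RPMI-8226 by -0.62 (adjusted p 0.00113).

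TAP2 did not follow TAP1. Its brighter probe, A_33_P3214650 (chr6:32793222-32793281, minus strand), read 2.48 and 2.44 in MM.1S given DMSO, 2.36 and 2.40 given GSK126, 2.27 and 2.17 given UNC0638, and 2.15 and 2.20 given both. Every treated array lay below the DMSO pair. It was called lower given both, by -0.28 (SE 0.0779, adjusted p 0.0247), but the change was -0.11 after quantile normalization (adjusted p 0.289) and -0.07 on the scaling by detected probes (adjusted p 0.525), and the call ended without either DMSO or either combination array (adjusted p 0.0401 to 0.103 over the 8). The call for TAP2 thus depended on the scaling. In RPMI-8226 it read 2.61 and 2.73, 2.77 and 2.88, 2.48 and 2.51, and 2.61 and 2.78. The combination overlapped DMSO there, with a change of 0.02, and no treatment was called. The second TAP2 probe, A_23_P368067, was well above background on 12 of 16 arrays and had no call against DMSO (0.19 given both in MM.1S, adjusted p 0.44).

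TAPBP encodes tapasin, which bridges empty class I molecules to TAP. Its brightest probe, A_23_P365719 (chr6:33267718-33267777, minus strand), read 5.49 and 5.57 in MM.1S given DMSO, 5.29 and 5.54 given GSK126, 5.88 and 5.96 given UNC0638, and 5.86 and 5.91 given both. The arrays split into those with UNC0638, none below 5.86, and those without, with no overlap. TAPBP rose by 0.39 with UNC0638 (SE 0.106, adjusted p 0.0394) and by 0.36 with both (adjusted p 0.0312), and with GSK126 it read -0.11 (adjusted p 0.539), which was not called. UNC0638 exceeded GSK126 by 0.50 (adjusted p 0.0351), and TAPBP was the only member called in that comparison by its brightest probe. The dimmer NLRC5 probe was called there too, but it entered the fit only through its GSK126 arrays, so that call is no test. Leaving out either array of DMSO, UNC0638 or the combination ended the calls for UNC0638 (adjusted p 0.0318 to 0.156 over the 8) and for both (0.0213 to 0.129).

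The TAPBP probe A_33_P3325914 repeated the pattern: 1.54 and 1.61 in MM.1S given DMSO, 1.39 and 1.50 given GSK126, 1.92 and 2.01 given UNC0638, and 1.98 and 1.89 given both. Its changes of 0.39 with UNC0638 (adjusted p 0.021) and 0.36 with both (adjusted p 0.0141) were called. Each call was kept under 6 of 8 other settings, with adjusted p up to 0.149 for UNC0638 and 0.118 for both. Another, A_23_P259580, whose coordinates span chr6:33273141-33281029, was called higher given both by 0.55 (SE 0.118, adjusted p 0.00951) and with UNC0638 reached 0.37 (adjusted p 0.0625, or 0.0311 with the replicate block). The dimmest, A_23_P360291, was well above background on 3 of 16 arrays. In RPMI-8226 the brightest TAPBP probe read 4.67 and 4.89, 4.83 and 4.73, 4.45 and 4.67, and 4.75 and 4.75, and every treated group overlapped DMSO. Its changes there were -0.00, -0.22 and -0.03, none called, and the response to UNC0638 differed from that in MM.1S by -0.61 without a call (adjusted p 0.101). Given DMSO it was lower in RPMI-8226 by -0.75 (adjusted p 0.000447).

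NLRC5 is the coactivator that binds class I promoters with the RFX proteins and raises their transcription. Its brighter probe, A_32_P416583 (chr16:57077428-57077487, plus strand), read -2.81 and -2.89 in MM.1S given DMSO, -2.40 and -2.98 given GSK126, -2.43 and -2.53 given UNC0638, and -2.97 and -3.12 given both. The GSK126 arrays straddled the DMSO pair, UNC0638 lay above it and the combination below it. None of these changes, 0.16, 0.37 and -0.19, was called (adjusted p 0.62, 0.185 and 0.43), and that for both turned to 0.03 on the scaling by detected probes. Over 9 other settings NLRC5 changed by 0.05 to 1.22 for GSK126 and by -0.42 to 0.78 for both, without a call. In RPMI-8226 it read -1.36 and -1.74, -1.10 and -1.23, -1.49 and -1.55, and -1.90 and -1.88. GSK126 lay above DMSO and the combination below it, without a call (0.39 and -0.34, adjusted p 0.483 and 0.215); the combination against GSK126 gave -0.73 (adjusted p 0.0853, or 0.0489 with the replicate block). Given DMSO, NLRC5 was higher in RPMI-8226 than in MM.1S by 1.30 (adjusted p 0.000132), the only member called in that direction by its chosen probe. A_33_P3399208 of HLA-B (1.40) and A_23_P368067 of TAP2 (0.96) were also called higher there. The TAP2 value is not exact, since only 1 of 2 MM.1S arrays given DMSO was well above background.

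The dimmer NLRC5 probe, A_23_P26583 (chr16:57116822-57116881, plus strand), read -5.36 and -6.61 in MM.1S given DMSO, -3.29 and -4.13 given GSK126, -6.65 and -5.56 given UNC0638, and -3.96 and -4.53 given both. The arrays with GSK126 stood above those without, and neither DMSO nor UNC0638 had an array well above background; the combination had 1 of 2. Folds against such groups are lower bounds, computed against the lowest scaled value among the probes well above background on an array. On that footing the probe was at least 2.11-fold higher with GSK126 and at least 1.46-fold higher with both than with DMSO. With UNC0638 it was at least 2.13-fold lower than with GSK126. The probe entered the MM.1S fit only through its GSK126 arrays, where it was high, so limma's p-values among these groups carry no test. Limma's calls for both inhibitors and for UNC0638 versus GSK126 ended with the replicate block. That for both also ended without the second DMSO array or either combination array, and after quantile normalization. In RPMI-8226 the probe was well above background on all 8 arrays, between -2.61 and -1.94, with no call against DMSO. It was at least 5.37-fold higher in RPMI-8226 than in MM.1S given DMSO (adjusted p 5.23e-05).

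**Figure D3:**
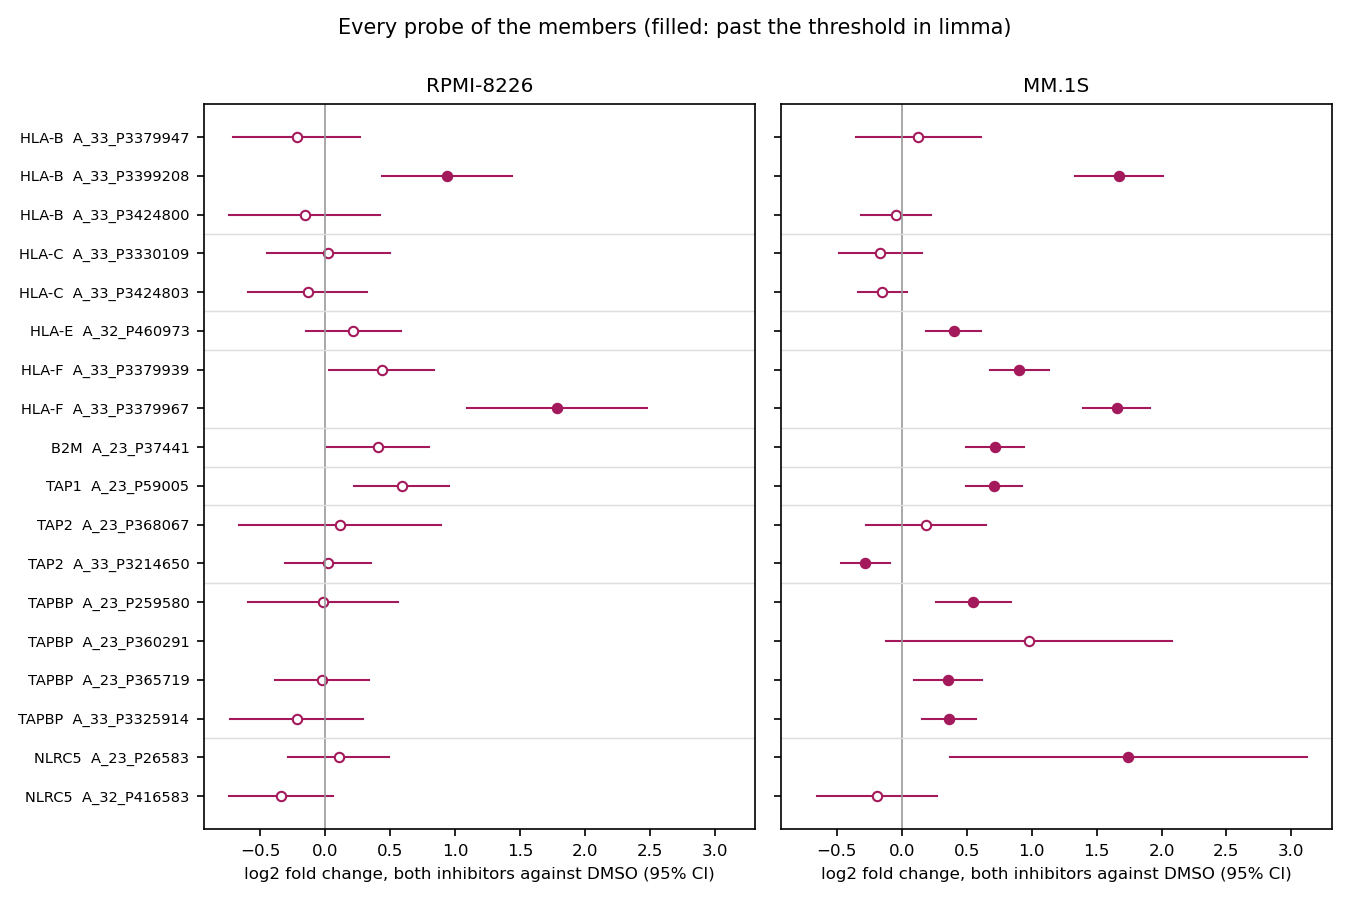
Log2 fold change for both inhibitors versus DMSO (horizontal axis) of every member probe kept, 17 in RPMI-8226 and 18 in MM.1S, with 95% confidence intervals and filled points for adjusted p under 0.05. Probes of 1 gene can part, as for HLA-B in MM.1S, where A_33_P3399208 stands at 1.67 and A_33_P3424800 at -0.04 (0.45 after quantile normalization).

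Counted by probe, both inhibitors called 10 of 18 member probes higher and 1 lower in MM.1S, against 22.2% and 31.7% of all 25097 probes kept, and 2 of 17 higher and 0 lower in RPMI-8226, against 7.20% and 5.17% of 23198, the 2 being A_33_P3399208 of HLA-B and A_33_P3379967 of HLA-F. In MM.1S UNC0638 called 7 higher and 0 lower (12.8% and 16.5% of all probes) and GSK126 3 higher and 0 lower (5.19% and 2.39%). The plot of all member probes shows this spread. The 10 called higher given both in MM.1S include A_23_P26583 of NLRC5, kept there only through its GSK126 arrays. The 18 include A_23_P360291 of TAPBP, not called and kept only through its combination arrays. Probes of 1 gene share their transcript or part of it and are not replicates.

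**Figure D4:**
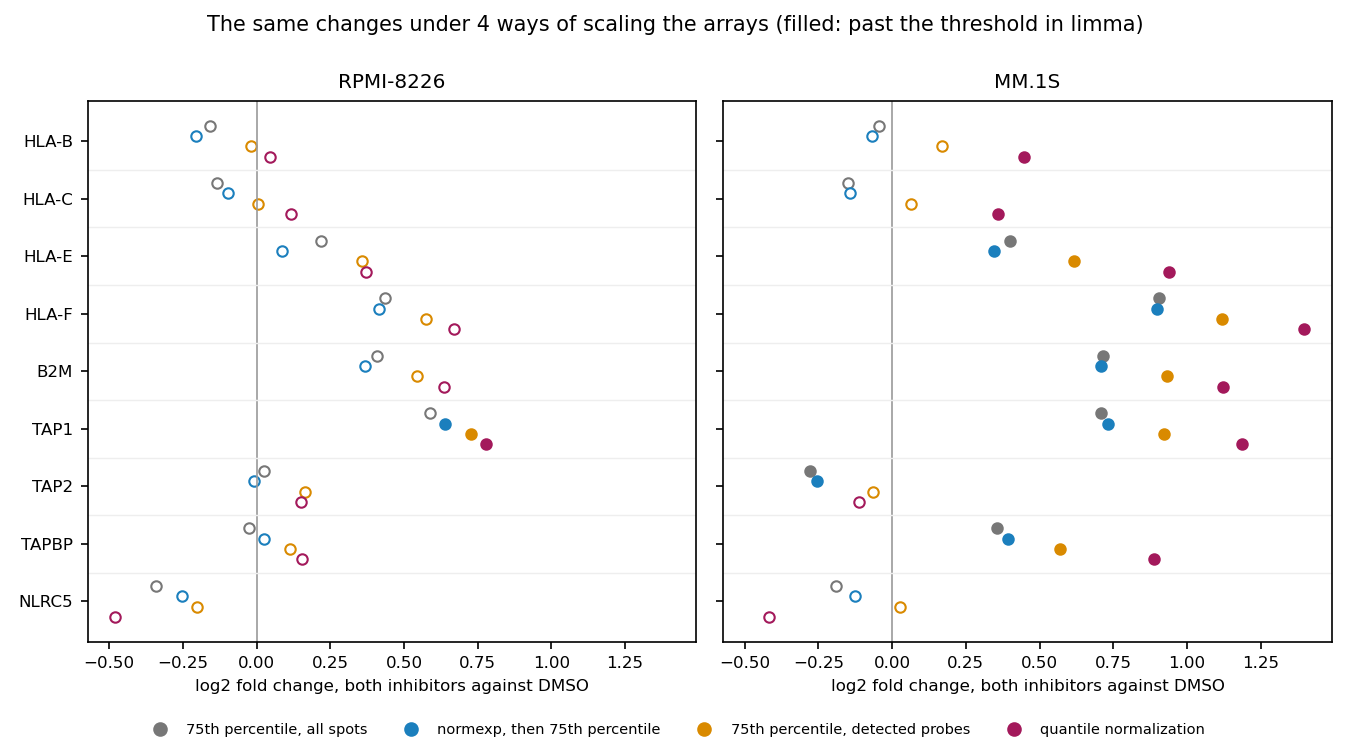
Log2 fold change for both inhibitors versus DMSO (horizontal axis) of the 9 members under 4 ways of scaling the arrays, by cell line, with a point for each scaling. HLA-E, HLA-F, B2M, TAP1 and TAPBP stay above 0 in MM.1S under each, while HLA-B runs from -0.07 to 0.45, HLA-C from -0.15 to 0.36 and NLRC5 from -0.42 to 0.03.

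The plot of the 4 scalings shows 5 members whose direction given both inhibitors in MM.1S did not depend on the scaling (HLA-E, HLA-F, B2M, TAP1 and TAPBP) and 3 whose sign did (HLA-B, HLA-C and NLRC5). TAP2 stayed below 0, yet was called under 2 of the 4.

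Across the 16 arrays, after subtracting the mean of each line, the members fell into loose groups. The pair HLA-F and B2M had the highest Pearson r, 0.865, followed by HLA-E with HLA-F (0.852) and B2M with TAP1 (0.812). HLA-B and HLA-C had 0.738, but by probes that overlap in sequence. The lowest r was that of HLA-C with TAP1, -0.422, and NLRC5 had values between -0.386 and 0.103 with the other members. These values describe arrays that share lines, treatments and slides, so they carry no test. By the same measure, the mean of the 9 centred members was closest to IL15 (r 0.962 over 16 arrays, among 12646 symbols), then JAK3 (0.928), DRAM1 (0.924), FNBP1 (0.922), SORL1 (0.922), CST3 (0.913), RAB31 (0.909), SERPINB6 (0.904), B4GALT4 (0.901) and CCL2 (0.898). Given both inhibitors IL15 changed by 1.31 in MM.1S and 1.09 in RPMI-8226, a description with no test, since it was picked for following the members on these arrays.

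Promoter sequence is a feature that the choice of members did not use. RefSeq windows (GRCh38.p14) from 250 bases before to 50 bases after a start site were at hand for 7 of 9 members, all but HLA-E and NLRC5. Their windows were searched on both strands, with overlapping matches counted, for 5 motifs. The interferon-response core GAAANNGAA was in 5 of 7 (HLA-F, B2M, TAP1, TAP2 and TAPBP) and in 8.11% of 35116 promoters. The NF-kappaB consensus was in 5 of 7 (HLA-B, HLA-C, B2M, TAP1 and TAPBP) and in 5.91% of promoters. The CRE core TGACG was in 4 (HLA-B, HLA-C, B2M and TAP2) and in 24.6%, and the Y box ATTGG in 5 (HLA-B, HLA-C, HLA-F, B2M and TAP1) and in 34.6%. The motif GAS, TTCNNNGAA, which is its own reverse complement, was in 0 of the first windows, in 1 second window of TAP1 and in 7.66% of promoters. The NF-kappaB consensus can match both strands at 1 place. A match is a description of letters and not evidence of binding. Only these letters were searched, so a window without a match can still hold a variant of the motif.

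The first windows of 5 members are shown because each holds the interferon-response core. Of these, 4 were called higher in MM.1S given both inhibitors (HLA-F, B2M, TAP1 and TAPBP). TAP2 was called lower on the scale used here, a call that depended on the scaling. HLA-B and HLA-C were not called there by their chosen probes, and their windows, without a match to that core, are not shown. Capitals mark that core and matches to the NF-kappaB consensus. The windows are chr6:29723184-29723483 (plus strand) for HLA-F, chr15:44711267-44711566 (plus) for B2M, chr6:32853655-32853954 (minus) for TAP1, chr6:33314029-33314328 (minus) for TAPBP and chr6:32838690-32838989 (minus) for TAP2, all on GRCh38.p14 and each written 5′ to 3′ along its own strand.
HLA-F: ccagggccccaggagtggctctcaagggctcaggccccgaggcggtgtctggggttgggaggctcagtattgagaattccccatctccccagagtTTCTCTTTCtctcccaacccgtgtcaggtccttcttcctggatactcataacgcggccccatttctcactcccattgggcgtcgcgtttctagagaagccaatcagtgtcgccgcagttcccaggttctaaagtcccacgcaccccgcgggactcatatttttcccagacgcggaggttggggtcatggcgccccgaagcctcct
B2M: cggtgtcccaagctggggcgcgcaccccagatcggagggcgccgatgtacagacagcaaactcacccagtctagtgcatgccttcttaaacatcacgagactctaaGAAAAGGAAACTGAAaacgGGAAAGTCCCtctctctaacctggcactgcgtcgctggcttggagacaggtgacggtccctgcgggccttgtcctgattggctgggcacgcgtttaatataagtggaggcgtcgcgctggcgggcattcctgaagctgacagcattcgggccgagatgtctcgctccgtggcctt
TAP1: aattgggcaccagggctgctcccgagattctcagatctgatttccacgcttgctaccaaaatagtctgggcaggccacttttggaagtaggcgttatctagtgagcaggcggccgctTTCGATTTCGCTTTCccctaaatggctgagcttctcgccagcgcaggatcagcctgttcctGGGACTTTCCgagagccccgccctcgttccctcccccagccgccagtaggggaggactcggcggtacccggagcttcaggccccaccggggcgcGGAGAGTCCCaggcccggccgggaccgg
TAPBP: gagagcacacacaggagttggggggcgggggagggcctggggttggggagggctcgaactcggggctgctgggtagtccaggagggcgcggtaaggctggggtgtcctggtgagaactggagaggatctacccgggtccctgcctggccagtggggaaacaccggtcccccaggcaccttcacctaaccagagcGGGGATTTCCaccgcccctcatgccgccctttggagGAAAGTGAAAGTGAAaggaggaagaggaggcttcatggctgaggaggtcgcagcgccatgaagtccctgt
TAP2: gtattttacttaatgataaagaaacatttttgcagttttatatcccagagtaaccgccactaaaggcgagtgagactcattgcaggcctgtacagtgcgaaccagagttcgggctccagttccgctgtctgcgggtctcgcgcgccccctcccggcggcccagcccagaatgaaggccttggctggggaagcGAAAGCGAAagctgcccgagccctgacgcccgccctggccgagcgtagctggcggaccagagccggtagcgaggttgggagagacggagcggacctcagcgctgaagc
Counted from the start site, the core begins at position -155 in HLA-F, printed there as its reverse complement, and at -58 in TAP2. B2M holds 2 overlapping cores that begin at -144 and -138, TAP1 has 2 at -133 and -127, again as reverse complements, and TAPBP has 2 at -20 and -14. TAP1 and the immunoproteasome gene PSMB9 are transcribed away from each other, with 488 bases between their start sites and 13 bases shared by their windows.

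The other genes of the pathway were counted in lists by role. Given both inhibitors, 23.6% of all symbols were called higher and 34.6% lower in MM.1S, and 8.32% and 4.66% in RPMI-8226. Of 9 other class I and class I-like chains found of 10 listed, 6 were tested; given both inhibitors 4 were called higher and 1 lower in MM.1S (median 0.49) and 1 higher in RPMI-8226 (median 0.08). HLA-J, a pseudogene, rose by 0.76 in MM.1S (adjusted p 0.00138; 1.24 after quantile normalization) and by 0.65 in RPMI-8226 (adjusted p 0.048), the latter call ending without any 1 array (adjusted p 0.0516 to 0.161). HLA-G, the nonclassical chain known from the placenta, rose by 0.64 in MM.1S (adjusted p 0.0108; 1.04 after quantile normalization; without the first DMSO array 0.0501). Whether the probes of HLA-J and HLA-G also detect other class I transcripts was not tested. MICB, a stress-induced ligand of NKG2D, read 4.78 and 4.77 in MM.1S given DMSO, 4.27 and 4.30 given UNC0638, and 3.98 and 3.90 given both. The groups did not overlap, and MICB changed by -0.49 (adjusted p 0.00754) and -0.84 (adjusted p 0.00049; -0.51 after quantile normalization).

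Peptide supply, 8 of 8 genes found, had 3 called higher and 3 lower given both in MM.1S (median 0.12; 5 higher and 2 lower after quantile normalization) and 0 in RPMI-8226 by limma (median 0.05). The immunoproteasome subunit PSMB9 read 3.77 and 3.68 in MM.1S given DMSO and 4.01 and 4.07 given both. Its combination arrays lay above DMSO by 0.31 (adjusted p 0.0156; 0.62 after quantile normalization), a call that ended without the second DMSO or the second combination array (adjusted p 0.0302 to 0.0779 over the 8), and in RPMI-8226 the change was 0.01. PSMB8, another such subunit, was not called in MM.1S (0.16, adjusted p 0.242) but was after quantile normalization (0.32, adjusted p 0.0456) and on the scaling by detected probes (0.37, 0.0264). PSMB10 was called lower by -0.44 (adjusted p 0.00379), with a sign that turned to 0.037 after quantile normalization. The proteasome activators PSME1 and PSME2 changed by -0.66 (adjusted p 0.0069) and -0.77 (adjusted p 0.000974) and the aminopeptidase LNPEP rose by 0.61 (adjusted p 0.00325). Each was called under all 4 scalings, but PSME2 shrank to -0.27 (adjusted p 0.0492) after quantile normalization.

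The 3 constitutive catalytic subunits were all called lower given both in MM.1S (median -0.73), PSMB5 by -0.64, PSMB6 by -0.75 and PSMB7 by -0.73, while quantile normalization called 2 of the 3 and gave -0.33, -0.30 and -0.25 (median -0.30); 0 of 3 were called in RPMI-8226 by limma. Of 5 chaperones, 2 were called lower in MM.1S and 1 in RPMI-8226, against 34.6% and 4.66% of all symbols. The MM.1S count is near that share and is not a result about the chaperones. CALR read 6.97 and 7.02 in MM.1S given DMSO and 6.28 and 6.17 given both, a change of -0.77 (adjusted p 0.000911), or -0.26 (0.0432) after quantile normalization. CANX, which holds newly made heavy chains, by A_33_P3325131 changed by -0.43 in MM.1S (adjusted p 0.00749; not called on the scaling by detected probes, 0.088) and by -0.70 in RPMI-8226 (adjusted p 0.0406), where leaving out any 1 array ended the call (0.0525 to 0.193), as did the scaling by detected probes (0.0673). Another CANX probe, A_24_P345993, changed by only -0.02 in MM.1S (adjusted p 0.917) and -0.14 in RPMI-8226 (adjusted p 0.661), so the probes of CANX did not agree.

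Of 15 regulators, 2 were called higher and 3 lower given both in MM.1S (median -0.06), against 23.6% and 34.6% of all symbols. After quantile normalization and on the scaling by detected probes 4 were higher and 1 lower, with medians of 0.02 and 0.15. Normexp correction and the replicate block each gave 4 higher and 4 lower. In RPMI-8226 1 was called higher (median 0.11). IRF9, the DNA-binding subunit of the complex that carries the type I interferon response, read -1.23 and -0.89 in RPMI-8226 given DMSO and 0.53 and 0.44 given both. In MM.1S it read -0.81 and -0.86 given DMSO, 0.20 and 0.38 given UNC0638, and 0.64 and 0.64 given both. The combination was clear of DMSO in both lines, with rises of 1.54 (adjusted p 0.00398) and 1.48 (adjusted p 0.000215). These rises held under all 4 scalings and without any 1 array in both lines. STAT2 rose by 0.88 in MM.1S (adjusted p 0.00102; 1.37 after quantile normalization) and by a like 0.82 in RPMI-8226 (SE 0.34), which was not called (adjusted p 0.158) except without the second DMSO array (0.0298). RFXANK, a subunit of the RFX complex at class I promoters, read 4.09 and 4.10 in MM.1S given DMSO, 3.66 and 3.66 given UNC0638, and 3.52 and 3.46 given both. The groups did not overlap, and the change given both, -0.60 (adjusted p 0.00162), was called under all 4 scalings and without any 1 array, but was -0.26 (0.0391) after quantile normalization and -0.39 on the scaling by detected probes, while in RPMI-8226 it was -0.32 (adjusted p 0.18). IRF1 was called in neither line on the main scaling (adjusted p 0.0607 in MM.1S and 0.873 in RPMI-8226); in MM.1S its rise of 0.39 was called under the 3 other scalings (adjusted p 0.0337 with quantile normalization) and with the replicate block (0.0119).

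**Figure D5:**
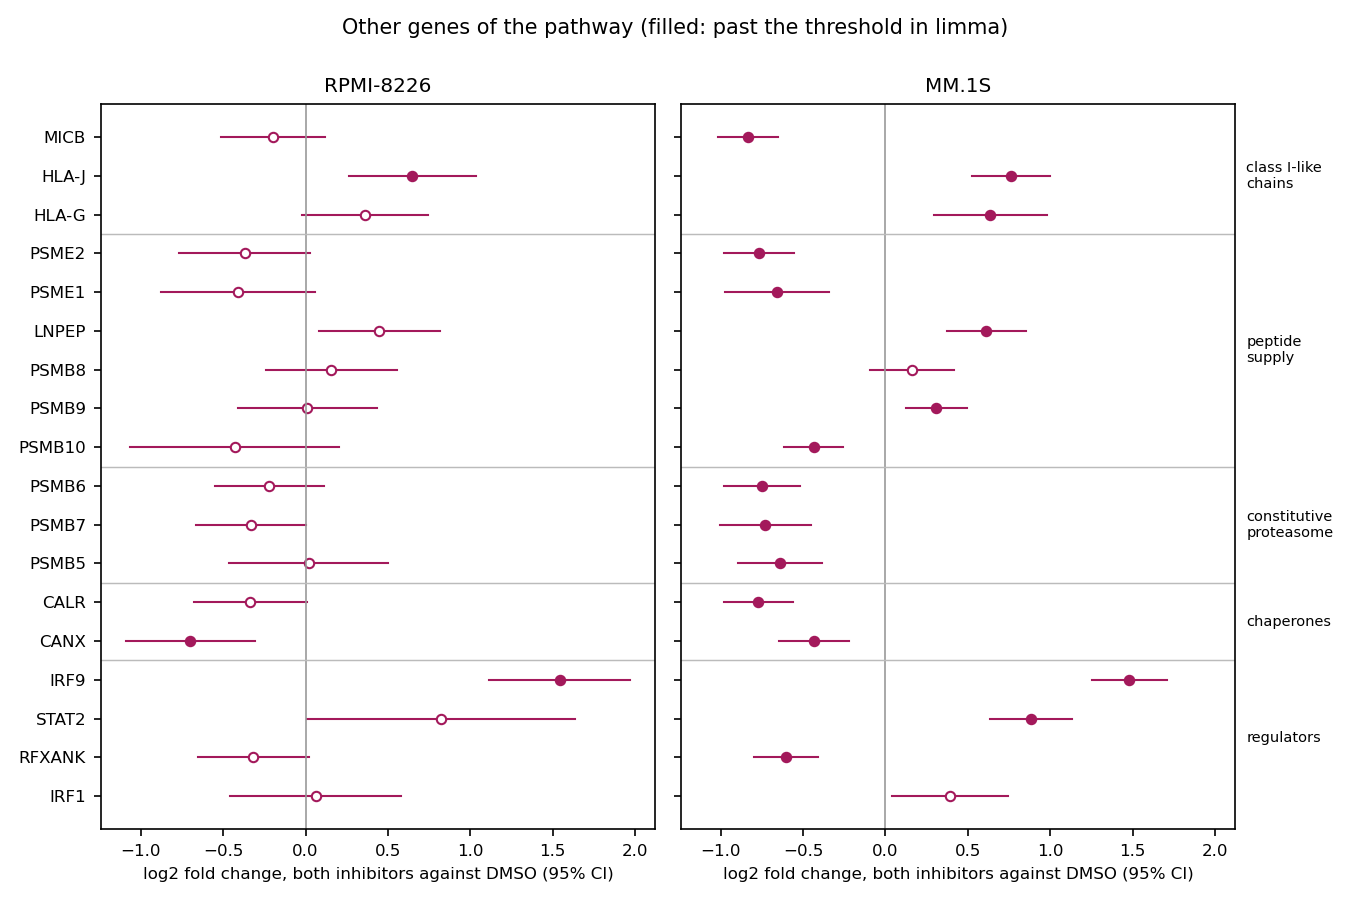
Log2 fold change for both inhibitors versus DMSO (horizontal axis) of 18 other genes of the pathway, by role and cell line, with 95% confidence intervals and filled points for adjusted p under 0.05. IRF9 stands highest in both lines (1.54 in RPMI-8226 and 1.48 in MM.1S), and the constitutive proteasome subunits stand below 0 in MM.1S under all 4 scalings.

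The plot of the other pathway genes sets out these values by role. With single inhibitors in MM.1S, UNC0638 called 2 class I-like chains higher and 1 lower, and 1 gene of peptide supply higher and 2 lower. It also called 2 constitutive subunits lower, 1 chaperone higher and 1 lower, and 2 regulators higher and 1 lower. Of all symbols, UNC0638 called 13.8% higher and 17.9% lower there, and GSK126 6.44% and 2.39%. GSK126 called 1 class I-like chain lower, MICB, by -0.36 (adjusted p 0.0439), a call that ended without any 1 array (0.0607 to 0.16). In RPMI-8226 neither single inhibitor called a gene of these lists by limma.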

How the data were processed

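Text output of Agilent Feature Extraction 10.7 was used for 16 one-colour arrays; the authors deposited background-subtracted signal intensities per the file headers, not log-transformed. Control spots (4259 of 62976) were left out, replicate spots were averaged, and log2 intensity was centred on each array's 75th percentile over the other spots. The deposited series table, rounded to 3 significant digits, equalled the scanner values in 99.9956% of 939472 entries. A probe entered a fit if some group in it had 2 arrays well above background: 23198 in RPMI-8226, 25097 in MM.1S and 26925 over both. Comparisons were fitted with limma 3.58.1 in R 4.3.3 with the package data.table (1.17.8), each line alone and both together for differences between lines, with Benjamini-Hochberg adjustment over all probes kept. The steps were tested on simulated data. Shares of symbols count each symbol by its brightest probe.

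The members and the gene lists were chosen with earlier results of these data known, and 3 genes were taken out of the lists afterwards, for a reason other than their values. Named from each list were the 3 called genes with the largest change given both inhibitors in each line, and always PSMB8, PSMB9, PSMB10 and IRF1; the 10 symbols with the highest r were named as alike. Pairing of replicate numbers was checked by correlated residuals: 6 of 6 pairs of RPMI-8226 groups exceeded 0.1 (r 0.254 to 0.415) and 5 of 6 in MM.1S (0.0847 to 0.225). The alternatives were quantile normalization, normexp correction (offset 50), no filter, a stricter filter, the deposited table, a replicate block, 1 fit over 16 arrays, the mean over a gene's probes and each array left out. Scaling by detected probes and other probes for HLA-B, HLA-C and NLRC5 were added after the data were seen.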

Additional observations from a re-analysis of the deposited data

Results flagged for a closer look

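The test of the difference between the lines' responses passed for 3 of the 18 other pathway genes named and for 0 of 9 members by limma, against 15.7% of all symbols for both inhibitors and 3.40% for UNC0638. Most of those 18 were named for a large called change given both inhibitors in 1 line, a choice that favours a difference between the lines, so the count is not a result about the pathway. The response of MICB to both inhibitors was higher in RPMI-8226 than in MM.1S by 0.64 on the log2 scale (SE 0.132, adjusted p 0.0121); against DMSO it was called lower in MM.1S (-0.84) and not called in RPMI-8226 (-0.19). That difference was called under all 4 scalings and without 15 of the 16 arrays in turn (adjusted p up to 0.0506). The response of the constitutive proteasome subunit PSMB6 to both inhibitors differed in the same direction, by 0.53 (SE 0.154, adjusted p 0.0469), but was 0.34 and not called after quantile normalization (0.14), not called on the scaling by detected probes (0.0684) or with no filter on dim probes (0.122), and kept its call without only 3 of the 16 arrays. The response of IRF9 to UNC0638 was lower in RPMI-8226, by -0.87 (SE 0.201, adjusted p 0.0494): IRF9 read -1.23 and -0.89 there given DMSO and -0.85 and -0.76 given UNC0638, against -0.81 and -0.86 and then 0.20 and 0.38 in MM.1S. It was called under all 4 scalings, but not with no filter on dim probes (0.111) or with the replicate block (0.0529), and kept its call without only 3 of the 16 arrays. All arrays of a line lay on its own slide, and the number of arrays, 2 in a group, limits each of these values.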

How the results depend on the processing

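Of 7426 fold changes recomputed for the members and the named genes under another setting, 6943 kept their direction and their side of the threshold. Another 242 lost a call, 123 gained 1, 112 with no call changed sign by more than their standard error and 6 changed sign where 1 of the values was called. Given both inhibitors versus DMSO in MM.1S, HLA-E, HLA-F, B2M and TAP1 were called under each of 9 settings and without any 1 array, and TAPBP under 8 of 9. The deposited table gave 425 of 425 fold changes alike and HLA-C by its own-locus probe changed no count. Members called are counted below without the share of all symbols under each setting, so these counts are not results about the members. The cause was not tested for any of these changes.

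Quantile normalization called 1 member for both inhibitors versus DMSO in RPMI-8226 (0 before). In MM.1S it called 3 for GSK126 (1 before), 5 for UNC0638 (4 before) and 4 for both versus UNC0638 (1 before). For both versus DMSO in MM.1S it called 7, all higher (6 before, 5 of them higher). It called 3 each for the difference between the lines' responses to UNC0638 and to both (0 before). It also turned signs in MM.1S given both: HLA-B by A_33_P3424800 to 0.45 (adjusted p 0.0193, with 0.012 to 0.942 over 9 settings), HLA-C by A_33_P3424803 to 0.36 (0.0171, with 0.0171 to 0.537) and, against GSK126, to 0.30 (0.0461), and PSMB10 to 0.037 (0.709, with 0.000788 to 0.709 over the scalings). Normexp correction called 1 for both versus DMSO and 1 for both versus UNC0638 in RPMI-8226, and 2 for GSK126 and 5 for UNC0638 in MM.1S. It called 3 for the UNC0638 response and 1 for the response to both. It gave -0.64 for the difference of the response of HLA-F by A_33_P3379967 to both (adjusted p 0.0436). With no filter, the counts in MM.1S were 0 for GSK126, 2 for UNC0638, 1 for both versus GSK126, 0 for both versus UNC0638 and 0 for UNC0638 versus GSK126. Requiring every array of the fit to be well above background called 1 for both in RPMI-8226. The replicate block called 1 for both versus DMSO and 1 for both versus GSK126 in RPMI-8226. Between the lines given DMSO it called 5, 1 higher and 4 lower (4 before). The members' median moved there from -0.11 to -0.18 with the block, so these counts do not rest on the same estimates.

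The fit over all 16 arrays called 3 for both versus DMSO, 1 for both versus GSK126, 2 for both versus UNC0638 and 1 for UNC0638 versus GSK126 in RPMI-8226, and in MM.1S 0 for GSK126, 2 for both versus GSK126 and 0 for both versus UNC0638. The mean over a gene's probes called 2 for both versus DMSO and 1 for both versus UNC0638 in RPMI-8226, and gave HLA-B 0.58 for both in MM.1S (adjusted p 0.012). Among settings added after the data were seen, scaling by detected probes called 1 for both in RPMI-8226 and 2 for GSK126 in MM.1S. It also called 5 for UNC0638 and 5, all higher, for both in MM.1S. HLA-B by the probe with no position called 1 for both in RPMI-8226, 2 for GSK126 and 2 for both versus UNC0638 in MM.1S. NLRC5 by its dimmer probe called 2 for UNC0638 versus GSK126 in MM.1S, a gain that is no test, since that probe entered the fit only through its GSK126 arrays.

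Leaving out each array in turn, with the lone array of a group assumed to vary like the others, changed these counts in MM.1S: GSK126 from 1 to 0 each time, UNC0638 from 4 to between 0 and 5, both from 6 to between 4 and 6, both versus GSK126 from 5 to between 0 and 4, both versus UNC0638 from 1 to between 0 and 2, and UNC0638 versus GSK126 from 1 to between 0 and 1. UNC0638 had 0 without the second DMSO array or either UNC0638 array and 2 without the first DMSO array. Both versus GSK126 had 0 without the first GSK126 or the second combination array and 1 without the first combination array. The difference of the UNC0638 responses went from 0 to between 0 and 2, the 2 without the first RPMI-8226 DMSO array.

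The calls in MM.1S and RPMI-8226 rest on 2 arrays a group. Dim probes (the second probes of NLRC5 and TAP2, and A_23_P360291 of TAPBP) lie near background, which limits what their changes show. Slide could not be fitted beside cell line. Levels are relative to each array, so a change shared by most genes is not seen.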
